A study of Homo sapiens with 2 samples.

Results

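MicroRNA precursors are the short hairpin RNAs from which microRNAs are cut. The deposited gene table held 1288 rows named for a microRNA (MIR with a number, or MIRLET, host genes left out) among 23608 rows in all. The rows described here had a mean of at least 10 FPKM over both libraries, FPKM being fragments scaled to transcript length and to the mapped fragments of the library, and did not have the status FAIL or HIDATA. That left 76 of the 1288 rows, which were thus chosen by their FPKM values in these libraries. The other 1212 were listed at 0 in both libraries, so the limit divided rows with any signal from rows with none. The lowest member mean was 27.7 FPKM, and the highest mean outside the limit was 0. The last members inside it were MIR941-1, MIR3689B and MIR1307, with 0 FPKM each in ribosome profiling and 105, 103 and 55.4 FPKM in RNA sequencing. The 3 rows outside it were at 0 in both libraries. The same values chose the members and made the ratios, so all ratios and counts at 0 are descriptions without a test.

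Ribosome-bound and total RNA of SW13, a human adrenal adenocarcinoma cell line, were set side by side. For both libraries, 10000000 cells at 80% confluence had received 5 µg of the plasmids Add2-Mhrt779 and Add2-Hotair, which carry murine long non-coding RNAs, by lipofection, and were harvested 48 h later. The ribosome profiling group was 1 library of RNA fragments that stayed with ribosomes after nuclease digestion. The RNA sequencing group was 1 library of total RNA from the same transfected line, and neither group held untransfected cells. There were no replicates, so no value has a replicate error, and differences below compare these libraries and not conditions.

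A microRNA gene is transcribed as a long primary RNA, from which the nuclear enzyme DROSHA cuts a hairpin. DICER1 trims the hairpin to a duplex in the cytoplasm, and an Argonaute protein keeps 1 strand. Bases 2 to 8 of that strand, the seed, pair with target mRNAs, and microRNAs with one seed form a family. Precursors encode no protein, and a hairpin that lies in an exon of an mRNA shares its bases with that mRNA. The rows describe whole hairpins and do not tell a hairpin's arms apart.

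The mature sequences below belong to members with a shared seed, and to single members that the values turn on. RefSeq (GRCh38.p14) held a hairpin for 59 of the 76 members and a mature sequence for 66. Capitals mark the seed.
hsa-miR-93-5p: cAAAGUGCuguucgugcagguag
hsa-miR-106a-5p: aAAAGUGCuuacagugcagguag
hsa-miR-106b-5p: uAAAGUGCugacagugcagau
hsa-miR-16-5p: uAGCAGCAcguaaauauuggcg
hsa-miR-424-5p: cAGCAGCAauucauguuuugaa
hsa-miR-503-5p: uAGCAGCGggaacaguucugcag
hsa-miR-221-3p: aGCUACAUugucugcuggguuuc
hsa-miR-222-3p: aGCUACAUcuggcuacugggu
hsa-let-7a-5p: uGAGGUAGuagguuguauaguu
hsa-let-7e-5p: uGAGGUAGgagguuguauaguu
hsa-miR-27a-3p: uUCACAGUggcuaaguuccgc
hsa-miR-30a-5p: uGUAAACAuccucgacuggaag
hsa-miR-31-5p: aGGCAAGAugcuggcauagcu
hsa-miR-100-5p: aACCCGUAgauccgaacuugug
hsa-miR-1244: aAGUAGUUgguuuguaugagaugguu
hsa-miR-4442: gCCGGACAagagggagg

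The seed AAAGUGC was common to miR-93, miR-106a and miR-106b, and AGCAGCA to miR-16 and miR-424, from which the seed of miR-503 differs in its last base. The hairpins of MIR221 and MIR222, neighbours on the X chromosome, are shown whole because both had fragments in both libraries. Capitals mark the 3p arm.
MIR221: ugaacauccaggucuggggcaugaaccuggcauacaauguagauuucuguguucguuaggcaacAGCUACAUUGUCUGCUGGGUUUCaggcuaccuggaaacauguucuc
MIR222: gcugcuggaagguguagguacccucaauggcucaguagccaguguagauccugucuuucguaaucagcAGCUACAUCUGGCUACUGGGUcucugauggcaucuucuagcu

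Most precursor rows had signal in 1 library and none in the other. Of the 76 members, 41 were listed at 0 in ribosome profiling and above 0 in RNA sequencing (4.57% of all 2734 tested rows were), and 14 had the opposite pattern, with 0 in RNA sequencing alone (2.16% of tested rows). Together these 55 members made 72.4% of the precursor rows, against 6.73% of tested rows. The 21 remaining members were above 0 in both libraries. A row at 0 is only said to be listed at 0, because an FPKM of 0 can also be an estimate that gave the reads to another row.

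For each row the ribosome profiling value was divided by the RNA sequencing value on the log2 scale, with 1 FPKM added to both, and the median over the 2734 tested rows, 0.39 or 1.31-fold, was subtracted. Against that median row, 19 members were at least 2-fold above (13.1% of tested rows were), 45 at least 2-fold below (19.7% of tested rows) and 12 lay between. The direction of the 55 members with a 0 followed from which library held the 0. Among the 21 members above 0 in both, 5 were at least 2-fold above (11.7% of all tested rows above 0 in both were), 4 at least 2-fold below (16.2% of those rows) and 12 between. Their median ratio was 0.15, against 0.04 over all tested rows above 0 in both. The median of all 76 members was -7.20, a value that the rows at 0 set and that moves with the pseudocount.

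**Figure D1:**
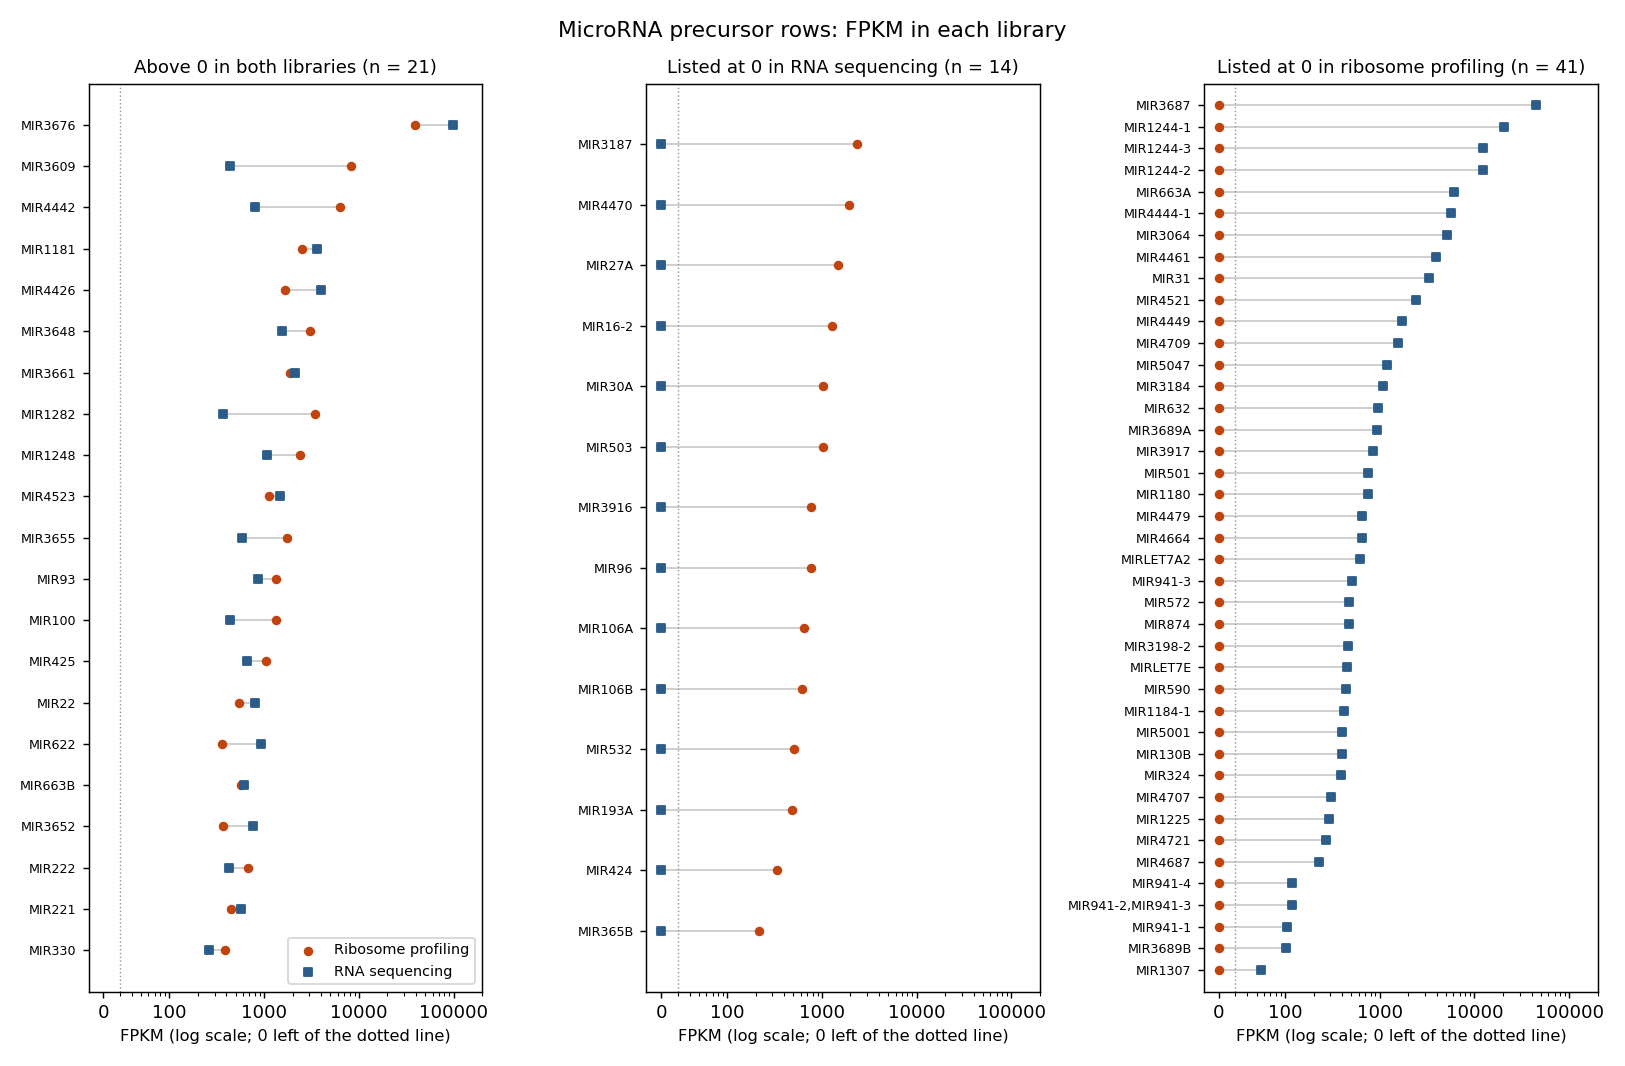
FPKM of each precursor row (x axis, log scale, with 0 drawn left of the dotted line) in ribosome profiling (circles) and RNA sequencing (squares), 1 library each. The 3 panels hold the 21 members above 0 in both libraries, the 14 listed at 0 in RNA sequencing and the 41 listed at 0 in ribosome profiling; MIR3676 is the highest row in both libraries.

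The members summed to 92046 FPKM in ribosome profiling and 253809 FPKM in RNA sequencing, which was 1.43% and 13.7% of each library's FPKM sum. The library sums differed too. All tested rows came to 6429916 FPKM in ribosome profiling and 1810965 FPKM in RNA sequencing, so the percentages differ by more than the members' own sums. MIR3676 supplied 39264 FPKM of the members' sum in ribosome profiling and 98230.5 FPKM of that in RNA sequencing. Members above 0 ran from 217 to 39264 FPKM with a median of 1036 in ribosome profiling (35 members), and from 55.4 to 98230.5 FPKM with a median of 705 in RNA sequencing (62 members).

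FPKM of this size came from very few fragments. In rows that were alone at their locus, the values were whole multiples of a step that depended only on the length of the row. The step, taken as 1 fragment, was worth 1879 FPKM in ribosome profiling and 1205 FPKM in RNA sequencing at 60 nt, 1024 and 656 FPKM at 71 nt, and 224 and 143 FPKM at 110 nt. A hairpin of 60 nt thus got 8.40 times the FPKM of one of 110 nt for the same fragment. At any length, 1 fragment was worth 1.56 times as much FPKM in ribosome profiling as in RNA sequencing. This ratio was taken from MIR222, on the assumption that it held 3 fragments in each library.

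Dividing each value by its step gave whole fragment numbers, within 0.02 (or 0.02% above 100 fragments), in both libraries for 38 members. Of the 23 members alone at their locus, 21 came out whole, and so did 17 of the 53 that share a locus with other rows. Among the latter, MIR106B, MIR590, MIR324 and MIR1225 missed a whole number most, at 1.002, 2.005, 1.016 and 1.006. Their fragment numbers are less certain. Another 23 members with a usable length did not, 11 had no sequence length and 4 had a length outside the fitted range. The steps were fitted to 14 rows, all of them among these 21 lone members, so whole numbers there were largely fixed by the fit. As a check, 34 of 35 values in 26 other rows, 8 of them members, came out whole. The exception was MIR4444-1. If the smallest step were more than 1 fragment, all numbers would scale together.

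**Figure D2:**
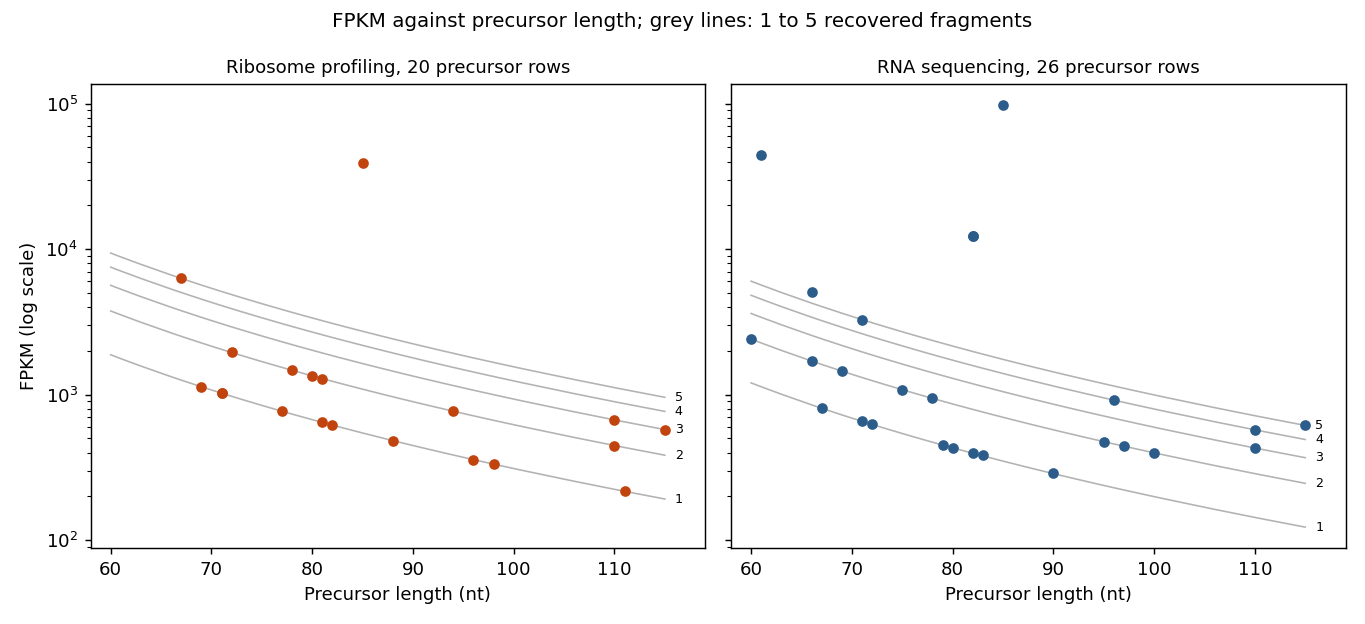
FPKM (y axis, log scale) against precursor length in nt (x axis) for the 38 members with whole fragments, in ribosome profiling (left) and RNA sequencing (right), each point a member above 0 in that library. Grey lines show what 1 to 5 fragments are worth; most members lie on the lines of 1 and 2 fragments, and MIR3676 lies far above them in both libraries.

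Over both libraries together, 14 of the 38 members rested on 1 fragment, 11 on 2, 8 on 3 to 7 and 5 on more, with a median of 2 and a maximum of 353. Of the 14 single fragments, 8 were in ribosome profiling and 6 in RNA sequencing. Of the 38 members, 18 were at 0 in ribosome profiling and 12 at 0 in RNA sequencing. Thus 25 members had a direction that 1 or 2 fragments set. Leaving them out took the members at 0 in RNA sequencing to 2, and those at 0 in ribosome profiling to 28. The members left include those without whole fragment numbers. The depth of those is not known, so the 2 and the 28 are not shown to rest on more fragments.

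The share of a member's fragments that lay in ribosome profiling gives its direction with a counting error. A row with the ratio of the median tested row would have a share of 45.6%, and one with equal FPKM in both libraries 39.1%. Exact (Clopper-Pearson) 95% intervals are given with the shares. They cover counting error only, and as the members were chosen on the same values they describe the depth and test nothing. MIR3687, MIR1244-2 and MIR1244-3, at 0 in ribosome profiling, passed the limit through RNA sequencing alone. With MIR3676 they were the 4 rows with the most fragments, and the 4 held 72 fragments in ribosome profiling and 382 in RNA sequencing. MIR1244-2 and MIR1244-3 had the same value and may count the same fragments, so 382 may be too high. The 34 other members held 33 fragments in ribosome profiling and 51 in RNA sequencing, a share of 39.3%.

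**Figure D3:**
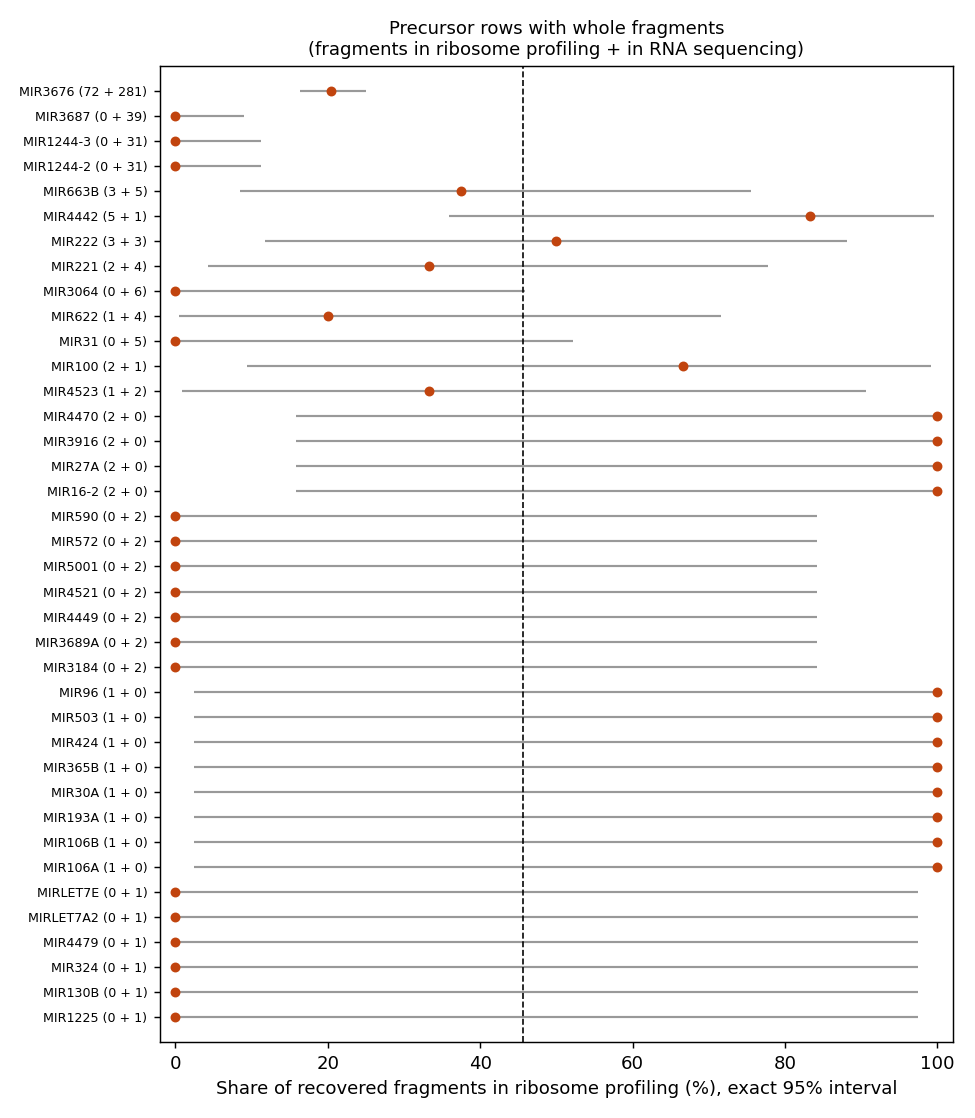
Share of recovered fragments in ribosome profiling (x axis, percent) for 38 members, with the fragments in ribosome profiling and in RNA sequencing in brackets; points are shares and bars exact 95% binomial intervals. The dashed line at 45.6% is the share of the median tested row; the 4 rows with the most fragments, at the top, have the shortest bars, and the bars of members with 1 or 2 fragments span most of the axis.

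MIR3676 (chromosome 17, 8090493 to 8090577, hg19) was the row named for a precursor with the highest FPKM in both libraries. The row had 39264 FPKM in ribosome profiling and 98230.5 FPKM in RNA sequencing. These values were 72 fragments in ribosome profiling and 281 in RNA sequencing, a share of 20.4% with a 95% interval of 16.3% to 25.0%. MIR3676 was 3.28-fold below the median tested row, and its share gave 0.31 of that row's ratio with a counting interval of 0.23 to 0.40. The authors' deposited table gave it q = 0.511, with a model standard error of 0.95 on the log2 scale. Of the 4 members with the most fragments, it was the only one with fragments in each library. RefSeq held no hairpin for MIR3676, and its position was not matched in GENCODE. It is not on the list, used below, of rows known to overlap another small RNA, ribosomal RNA or a repeat. Leaving out that list therefore kept MIR3676. Whether its fragments came from a microRNA precursor or from another RNA at this locus was not tested.

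MIR3687 (chromosome 21, 9826203 to 9826263, hg19) was listed at 0 in ribosome profiling and had 44214 FPKM in RNA sequencing. That was 39 fragments in RNA sequencing, so a count of 0 in ribosome profiling allowed a share of up to 9.03% by the exact interval. Against a floor of 3 fragments in the ribosome profiling library, its FPKM as deposited was at least 8.33-fold lower in ribosome profiling. Its neighbour MIR3648 (chromosome 21, 9825832 to 9826011, hg19) had 3027 FPKM in ribosome profiling and 1547 FPKM in RNA sequencing, 1.49-fold above the median row with a model standard error of 0.86 from the authors' deposited table. Both rows are on the list of 26 rows known to overlap another small RNA, ribosomal RNA or a repeat, as are the MIR1244 copies, and the part of such reads in their values was not tested. Of that list 9 rows were above 0, 6 of them listed at 0 in ribosome profiling and 0 in RNA sequencing alone.

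MIR1244 is annotated in several identical copies. MIR1244-2 and MIR1244-3 (both chromosome 12 in the table) were listed at 0 in ribosome profiling and had the same 12278 FPKM in RNA sequencing, 31 fragments each, which allowed a share of up to 11.2%. MIR1244-1 was listed at 0 in ribosome profiling and had 20307.5 FPKM in RNA sequencing, and gave no whole number of fragments. The MIR1244 hairpin occurs whole in transcripts of PTMA, which encodes prothymosin alpha, and PTMA had 280 FPKM in ribosome profiling and 186 FPKM in RNA sequencing. Reads of the copies and of PTMA cannot be told apart, so the 3 rows are uncertain and may count the same fragments. In the authors' deposited table MIR1244-1 had the lowest q of all members, 0.063.

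The authors' deposited table called 0 of the 76 members significant (1.87% of tested rows were called). It tested 65 of the 76, the status being LOWDATA for 10 and NOTEST for 1, and 1.92% of all tested rows with the status OK were called. Of these 65 members, 8 had an unadjusted p under 0.05 in the authors' deposited table, a share close to the 11.6% of all tested rows with the status OK. Among the 55 members with a 0, 24 shared p = 0.159 in the authors' deposited table, the upper tail of a normal distribution at 1 SD. Of those, 13 were at 0 in ribosome profiling and 11 in RNA sequencing, with FPKM in the other library from 103 to 2409.6. Its model standard error over 16 members above 0 in both had a median of 1.78 on the log2 scale, from 0.86 to 2.39.

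Members of the microRNA families with well-known targets had 1 to 6 fragments where these could be recovered. MIR222 (chromosome X, 45606421 to 45606530, hg19) and MIR221 (chromosome X, 45605585 to 45605694, hg19) encode microRNAs that target the cell-cycle inhibitor CDKN1B. MIR222 had 671 FPKM in ribosome profiling and 430.2 FPKM in RNA sequencing. Its 3 fragments in each library were assumed, to set the ratio between the libraries. MIR221 had 447 FPKM in ribosome profiling and 574 FPKM in RNA sequencing, 2 and 4 fragments. Its share of 33.3% had an interval of 4.33% to 77.7%, so no direction was detectable at this depth. Both rows of this family were above 0, in both libraries.

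Of the 15 rows of miR-17-92 and its paralogue clusters, whose microRNAs promote proliferation, 3 were above 0, and all 3 carry the seed AAAGUGC. MIR93 had 1349.7 FPKM in ribosome profiling and 866 FPKM in RNA sequencing, 1.19-fold above the median row with a model standard error of 2.04 in the authors' deposited table. MIR106B, from the same cluster, had 619 FPKM in ribosome profiling, MIR106A had 645 FPKM there, and both were listed at 0 in RNA sequencing. MIR106A was 1 fragment. MIR106B, which shares its locus with other rows, came to 1.002 steps and was taken as 1 fragment. MIR93 and MIR106B lie in introns of MCM7, a subunit of the replicative helicase, which had 133 FPKM in ribosome profiling and 57.0 FPKM in RNA sequencing.

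Of 8 rows of the miR-15/16 family, known for repressing cyclins and BCL2, 3 were above 0, and all 3 were listed at 0 in RNA sequencing. MIR16-2 had 1289.6 FPKM in ribosome profiling, which was 2 fragments. MIR503 had 1024 FPKM and MIR424 had 333 FPKM in ribosome profiling, 1 fragment each. The count is a description of 4 fragments in all. MIR16-2 lies in an intron of SMC4, a condensin subunit with 24.8 FPKM in ribosome profiling and 15.5 FPKM in RNA sequencing.

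Let-7 microRNAs, which repress LIN28 and RAS mRNAs, had 2 of 12 rows above 0. MIRLET7A2 was listed at 0 in ribosome profiling and had 625 FPKM in RNA sequencing. MIRLET7E was listed at 0 in ribosome profiling and had 451 FPKM in RNA sequencing, and each was 1 fragment. Of the 6 rows in the clusters of MIR100 and its paralogues, 1 was above 0. This was MIR100 itself, with 1347 FPKM in ribosome profiling and 432 FPKM in RNA sequencing, 2 and 1 fragments.

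Of the miR-23/27/24 clusters 1 of 7 rows was above 0, MIR27A (chromosome 19, 13947254 to 13947331, hg19), a microRNA that targets regulators of fat-cell differentiation. It had 1471 FPKM in ribosome profiling, 2 fragments. MIR30A, 1 of 6 miR-30 rows, had 1024 FPKM in ribosome profiling, 1 fragment. RNA sequencing listed both rows at 0. MIR31, whose microRNA is linked to cell migration, was listed at 0 in ribosome profiling and had 3282 FPKM in RNA sequencing. With 0 fragments in ribosome profiling and 5 in RNA sequencing, the exact interval of its share reached 52.2%, so no difference was detectable at this depth.

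No row was above 0 among the miR-29 (4 rows), miR-26 (3), miR-181 (6) and miR-200 (5) families. The same held for the 6 rows in HOX clusters, the 9 rows of the miR-371 and miR-302 clusters of pluripotent cells, and the 11 cardiac and muscle rows. The large imprinted and primate clusters on chromosome 14 (40 rows) and chromosome 19 (42 rows) were at 0 throughout too. At this depth, such a row could be told from 0 by a single fragment, worth 143 FPKM in RNA sequencing at 110 nt, and rows at 0 are not shown to be unexpressed.

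Members above 0 in both libraries and at least 2-fold above the median row were MIR3609, MIR1282, MIR4442, MIR100 and MIR3655. MIR3609 had 8215 FPKM in ribosome profiling and 435 FPKM in RNA sequencing, 14.4-fold above with a model standard error of 2.16 on the log2 scale in the authors' deposited table. It lies in an intron of TRRAP, a scaffold of histone acetyltransferases with 3.48 FPKM in ribosome profiling and 6.67 FPKM in RNA sequencing. MIR1282 had 3407 FPKM in ribosome profiling and 366 FPKM in RNA sequencing, 7.09-fold above with a model standard error of 1.52 in the authors' deposited table.

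MIR4442 (chromosome 3, 25706364 to 25706430, hg19) had 6294 FPKM in ribosome profiling and 807 FPKM in RNA sequencing. Its 5 fragments in ribosome profiling and 1 in RNA sequencing gave 5.96 times the median row's ratio with a counting interval of 0.67 to 282. That interval holds no difference and a large one. MIR3655, with the status LOWDATA, had 1757 FPKM in ribosome profiling and 577 FPKM in RNA sequencing, 2.32-fold above. Its hairpin occurs whole in the mRNA of IK, a splicing factor with 42.4 FPKM in ribosome profiling and 9.44 FPKM in RNA sequencing.

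At least 2-fold below the median row, besides MIR3676, were MIR622, MIR4426 and MIR3652. MIR622 (chromosome 13, 90883436 to 90883531, hg19) had 358 FPKM in ribosome profiling and 918 FPKM in RNA sequencing. Its 1 and 4 fragments gave 0.30 of the median row's ratio with a counting interval of 0.0060 to 3.01. MIR4426 had 1662 FPKM in ribosome profiling and 3997 FPKM in RNA sequencing, 3.15-fold below. MIR3652 had 372 FPKM in ribosome profiling and 763 FPKM in RNA sequencing, 2.68-fold below, and the status of both rows was LOWDATA. Its hairpin lies whole in the mRNA of HSP90B1, an endoplasmic reticulum chaperone, which had 272 FPKM in ribosome profiling and 78.9 FPKM in RNA sequencing.

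Members between these limits included MIR22, with 545 FPKM in ribosome profiling and 807 FPKM in RNA sequencing, 1.94-fold below. MIR1181 had 2486 FPKM in ribosome profiling and 3578 FPKM in RNA sequencing, 1.88-fold below. Both had the status LOWDATA. The MIR1181 hairpin lies in the mRNA of CDC37, a kinase-specific cochaperone of HSP90, with 59.0 FPKM in ribosome profiling and 42.4 FPKM in RNA sequencing. MIR663B had 575 FPKM in ribosome profiling and 615 FPKM in RNA sequencing, 3 and 5 fragments, while its relative MIR663A was listed at 0 in ribosome profiling and had 6145 FPKM in RNA sequencing.

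The highest members listed at 0 in RNA sequencing were MIR3187, with 2339.6 FPKM in ribosome profiling, MIR4470 with 1949 FPKM, MIR27A, MIR16-2 and, tied at 1024 FPKM, MIR30A and MIR503. MIR3187 gave no whole fragment number, and the other 5 were 2 fragments or 1. The members listed at 0 in ribosome profiling reached far higher, up to 44214 FPKM in RNA sequencing.

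The genes around each hairpin were set beside the library that held the 0. GENCODE release 29 placed 68 members on the chromosome that the table gives. Over all 76 members, 53.9% were listed at 0 in ribosome profiling and 18.4% in RNA sequencing. An overlap of any length with an exon was counted. Of the 18 members that overlap a same-strand exon of a protein-coding gene, retained introns included, 11 were listed at 0 in ribosome profiling. The 7 others were above 0 in both, and 0 were at 0 in RNA sequencing. Of the 28 in a same-strand intron, 16 were at 0 in ribosome profiling and 5 in RNA sequencing. Of the 10 that overlap an exon of a non-coding gene, 3 were at 0 in ribosome profiling and 5 in RNA sequencing. Of the 7 with no other gene, the numbers were 4 and 3. Fragment numbers came out whole for 4 of the 18 exonic members and 16 of the 28 intronic ones, and the part of depth in these counts was not tested.

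A search for whole hairpins in annotated transcripts was not separate from the exon count. Most members that it found in a protein-coding transcript were also among the exonic members above. Of 59 hairpins, 14 occurred unbroken in a protein-coding transcript of another gene. Of those 14, 9 members were at 0 in ribosome profiling (53.9% of all 76 members were). In RNA sequencing 0 were at 0 (18.4% of all 76 members were), and 5 were above 0 in both. The 14 held 12 distinct sequences, 7 of them at 0 in ribosome profiling, because the 3 MIR1244 rows share 1 hairpin. For 4 of the 14, MIR1244-1, MIR1244-2, MIR4426 and MIR4444-1, the RefSeq hairpin was matched by name and lies on another chromosome than the row. Of the 10 on the same chromosome, 6 were at 0 in ribosome profiling. Of the other 45, 24 were at 0 in ribosome profiling, 13 at 0 in RNA sequencing and 8 above 0 in both. NPC2, a lysosomal cholesterol carrier, had 32.3 FPKM in ribosome profiling and 29.2 FPKM in RNA sequencing, while MIR4709 in its mRNA was listed at 0 in ribosome profiling and had 1542 FPKM in RNA sequencing.

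STMN1, the microtubule-destabilising protein stathmin, had 114 FPKM in ribosome profiling and 30.6 FPKM in RNA sequencing. MIR3917, which overlaps an exon of STMN1 but was not found whole in its transcripts, was listed at 0 in ribosome profiling. It had 842 FPKM in RNA sequencing. DDX5, an RNA helicase of the DROSHA complex, had 58.1 FPKM in ribosome profiling and 31.6 FPKM in RNA sequencing. MIR3064, in a retained intron of DDX5, was listed at 0 in ribosome profiling and had 5109.97 FPKM in RNA sequencing, 6 fragments. For 17 members the other gene at the locus, on either strand, passed the filter. Counted once per member, these 15 distinct genes had a median ratio of 0.08, from -4.84 to 1.67. Reads of a hairpin and of its host transcript may have been divided between their rows, so such members are uncertain.

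Of 18 rows for proteins that make or use microRNAs, 4 passed the filter. At least 2-fold below the median row was 1 of them (19.7% of tested rows were). AGO2, the Argonaute that cuts paired targets, had 4.46 FPKM in ribosome profiling and 18.04 FPKM in RNA sequencing, 4.57-fold below. The authors' deposited table gave AGO2 q = 0.293 and did not call it significant. RAN, which drives export of hairpins with XPO5, had 141 FPKM in ribosome profiling and 98.9 FPKM in RNA sequencing. DDX17, a helicase paralogue of DDX5, had 23.4 FPKM in ribosome profiling and 28.0 FPKM in RNA sequencing.

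Small nucleolar RNAs, which guide chemical changes of ribosomal RNA, are other short non-coding rows of the table. Of 122 box C/D rows, 59 were at least 2-fold above the median row and 38 at least 2-fold below, with 28 at 0 in ribosome profiling and 33 at 0 in RNA sequencing. Of 77 box H/ACA rows, 25 were at least 2-fold above and 34 below, with 27 at 0 in ribosome profiling and 6 at 0 in RNA sequencing. Rows at 0 in ribosome profiling thus made 53.9% of precursors, 23.0% of box C/D rows, 35.1% of box H/ACA rows and 4.57% of all tested rows. With 1 library per assay these differences, and the part of row length in them, were not tested.

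**Figure D4:**
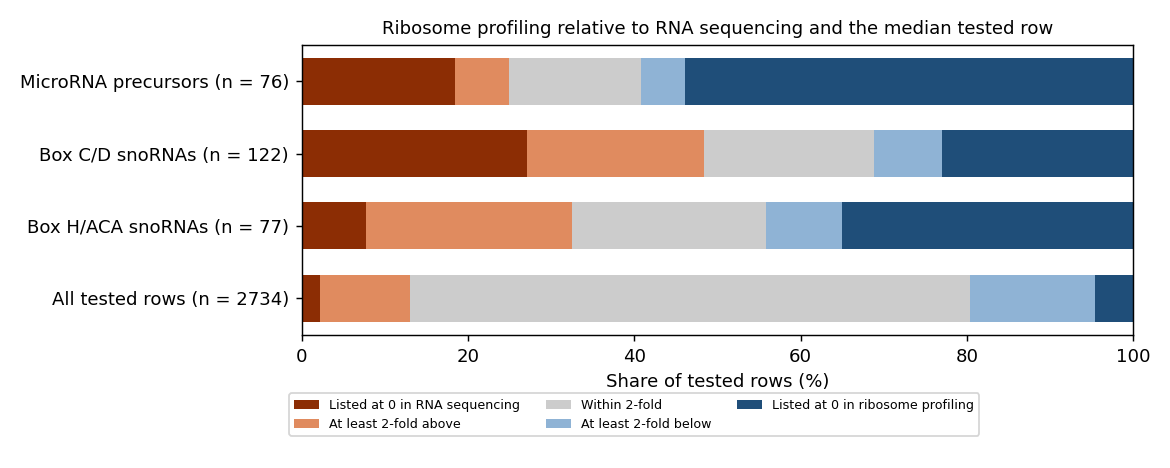
Share of tested rows (x axis, percent) by direction of ribosome profiling relative to RNA sequencing and the median tested row, for 76 microRNA precursors, 122 box C/D and 77 box H/ACA small nucleolar RNAs and 2734 tested rows. Dark colours are rows listed at 0 in 1 library; precursors show the widest dark blue block, 53.9% listed at 0 in ribosome profiling.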

How the data were processed

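The authors' deposited table gave 1 FPKM value per gene and library, with a test statistic (a score), p-value and q-value per row. Per the submitters' processing notes, the builds were hg19 and mm10, and the tools included bedtools 2.16.1, Bowtie2 2.0.0.6 and TopHat2 2.0.8b, as well as SAMtools 0.1.18, with no role stated for each. What program wrote the table, and how it placed reads with several matches, is not given in the sources used here.

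Ratios used a pseudocount of 1 FPKM, which understates low rows. Model standard errors are the deposited log2 ratio over the statistic in size. Steps were fitted with a degree 4 polynomial in log length to 14 rows picked by hand after seeing the data, with a largest deviation of 0.00083%. The recovery of fragments from such steps was tested on simulated data. The simulation was given the true multiples and library ratio and had no shared loci. It therefore could not test the multiples and ratio chosen for these data. Python 3.11.15, numpy 2.4.6, pandas 2.3.3, scipy 1.17.1 and matplotlib 3.10.9 were used.

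The members and all lists were chosen with earlier results of these data known. The rule named the 10 members of highest mean FPKM, the 5 highest and lowest ratios above 0 in both libraries, the 5 highest at 0 in either library, members called significant, the 3 rows on each side of the limit, and up to 3 members per family list. MIR31, MIR3648, MIR663B, MIR3064, MIR3917 and MIR4709 were added after their values were seen. The alternatives changed the pseudocount, filter, status, centring and members.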

Additional observations from a re-analysis of the deposited data

How the results depend on the processing

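No paired analysis was possible because each assay had 1 library. The counts at 0 and at least 2-fold above or below kept within 1.5 times under the alternatives, except when members of 1 or 2 fragments were left out, an alternative chosen after seeing the data, which gave 7 members at least 2-fold above and 2 at 0 in RNA sequencing. The median ratio of all members was -10.5 with a pseudocount of 0.1 FPKM, -4.87 with 5 FPKM, -6.65 with a mean filter of 1 FPKM, -7.45 with a filter of 30 FPKM, -6.52 with no filter, -6.81 without centring, -7.09 without the list of rows that overlap another small RNA, ribosomal RNA or repeat, and -7.45 centred on equal fragments (chosen after seeing the data). For members above 0 in both libraries the median was 0.70 and -0.024 with filters of 1 and 30 FPKM, 0.82 with no filter, 0.54 without centring, -0.48 without rows sharing a locus with another member, -0.21 without the overlap list and -0.10 centred on equal fragments. The sign of that median therefore depends on the setting. Under the changed filters and centring these members kept their own values. Only the subtracted value moved, from -0.28 with no filter to 0.64 centred on equal fragments. Without rows sharing a locus or the overlap list, the subtracted value stayed at 0.39 and members were left out. Ratios of single members above 0 in both moved by under 0.1 on the log2 scale in 137 of 242 values. Of these members, 5 changed sign under some setting (MIR663B, MIR330, MIR3661, MIR222 and MIR93), and none of the 9 at least 2-fold from the median row did. Depth limits the values, since 25 of the 38 members with recovered fragments rest on 1 or 2, as do the lack of replicates and reads shared with other genes.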
